A study of Drosophila melanogaster with 2 samples.

Results

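The genes of the factors that start, elongate and end protein synthesis were examined for binding of the Drosophila T-box transcription factor Org-1 in whole embryos. The set was all protein-coding genes of the Ensembl annotation whose symbol starts with eIF, eEF or eRF, which gave 54 of 13945 genes. The rule used symbols and no measured value, but the set was chosen with earlier results of these data known. Of the 54, 44 encode initiation factors, 8 elongation factors and 2 release factors. Binding was measured by chromatin immunoprecipitation and sequencing in embryos of both sexes, collected 2 to 24 hours after laying, from a stable transgenic line in which Org-1 carries green fluorescent protein (GFP) at its C terminus. The precipitation used an anti-GFP antibody by one label, while the antibody field names org-1. There was 1 group, with biological replicates 1 and 2 and no second condition, and the promoter that drives the transgene is not given in the sources used here. Such embryos pool many stages and cell types, so a region bound in few cells cannot be told apart from one bound weakly in many. The main measurement was a list of 4434 regions kept by the authors at a threshold for reproducibility between replicate rankings (irreproducible discovery rate). Each region has a summit, the position of highest signal, and a signal value in the authors' own units. Signal in that list ran between 101 and 2560 with a median of 164. Longer lists of 30000 candidate regions per replicate, most of them below the threshold, were used to look at each replicate alone. Read depth is unknown from these lists.

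Translation starts when the eIF4 factors bring the capped mRNA to a small ribosomal subunit that carries eIF1, eIF1A, eIF3, eIF5 and the eIF2 complex with initiator tRNA. eIF5B then joins the large subunit, which eIF6 otherwise keeps apart, and eEF1 and eEF2 drive elongation until eRF1 and eRF3 release the chain. Many of these genes, though not every paralogue, are active in nearly all cells. Org-1, related to vertebrate Tbx1, is known for its role in muscle founder cells of the embryo. A T-box protein binds DNA through a core written here as AGGTGTG.

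The sequences at the bound starts differed much in base composition. Examples are printed to show what lay under the summits and at some starts without a summit in the authors' thresholded list. All are on build dm6, written 5′ to 3′ on the strand of the gene, read from the RefSeq release 6 genome. Capitals mark any of the 12 short words that were searched on both strands. The first is the AT-rich stretch at the summit of eIF4EHP (chr3R:24109082-24109182, minus strand).
eIF4EHP: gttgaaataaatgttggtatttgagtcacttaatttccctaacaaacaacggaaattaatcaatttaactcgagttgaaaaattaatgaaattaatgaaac
The next is the summit at eEF1gamma, where the capitals mark the DNA replication-related element TATCGATA (chr3R:29220106-29220201, plus strand).
eEF1gamma: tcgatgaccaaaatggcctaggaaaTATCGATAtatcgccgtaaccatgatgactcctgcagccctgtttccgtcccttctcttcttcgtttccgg
The stronger summit at eIF1, nearest to the start of RpL28, holds the same element, followed by a GATA word (chr3L:3222990-3223090, plus strand).
eIF1: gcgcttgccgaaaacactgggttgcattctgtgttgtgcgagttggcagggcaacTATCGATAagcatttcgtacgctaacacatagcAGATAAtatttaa
The summits in introns of eIF3h (chr2L:5052481-5052581, minus strand) and eIF4A (chr2L:5982258-5982358, plus strand) hold none of the words.
eIF3h: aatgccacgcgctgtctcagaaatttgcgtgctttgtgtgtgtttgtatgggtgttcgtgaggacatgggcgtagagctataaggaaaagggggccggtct
eIF4A: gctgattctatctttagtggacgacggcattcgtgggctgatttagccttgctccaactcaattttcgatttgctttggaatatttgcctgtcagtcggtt
For contrast stands the start of eEF1delta (chr2L:10232437-10232536, plus strand), which encodes a partner of eEF1gamma, holds the element TATCGATA and had no region at its start in any dm6 list used.
eEF1delta: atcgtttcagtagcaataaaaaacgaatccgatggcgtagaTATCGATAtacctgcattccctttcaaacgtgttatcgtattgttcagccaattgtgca
The start of eEF1alpha2 (chr3R:31738398-31738497, plus strand) was also without a region and holds none of the words.
eEF1alpha2: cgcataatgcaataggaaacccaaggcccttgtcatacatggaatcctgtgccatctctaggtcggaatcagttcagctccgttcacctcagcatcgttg
The start of the release factor gene eRF3 (chr2L:12434382-12434481, plus strand) holds the shorter core ATCGAT and had candidates only below the threshold.
eRF3: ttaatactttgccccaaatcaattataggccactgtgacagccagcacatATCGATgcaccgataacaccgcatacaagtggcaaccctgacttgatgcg

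Summits lay at the own start of 11 of the 54 translation factor genes, a share somewhat above that of the genome and far below that of ribosomal protein genes. A summit within 500 bp of an annotated start of the same gene was found at 20.4% of the factor genes, against 13.6% of all protein-coding genes. Of the other genes within 20% of each factor gene's length, 13.9% had such a summit, which would correspond to 7.53 of 54 genes. Of 92 cytoplasmic ribosomal protein genes, 61 (66.3%) had one, and of 73 mitochondrial ribosomal protein genes 13 (17.8%). In the wider window of the gene with 5 kb on either side the optimal list gave 21 of 54 factor genes (38.9%), against 41.0% of all genes and 41.1% of genes of similar length. The replicates lay on either side of that background, with 18 of 54 in replicate 1 alone, against 40.1% of genes of similar length, and 27 of 54 in replicate 2 alone, against 40.6%. None of these differences was tested, because there is 1 group of samples and the set was examined with earlier results of these data known. At the level of single replicates the own-start share was less even. Among the 4434 strongest candidates of replicate 1, 9 factor genes had one at an own start (16.7%, against 13.5% of all genes), and among those of replicate 2, 14 had one (25.9%, against 13.8%).

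**Figure D1:**
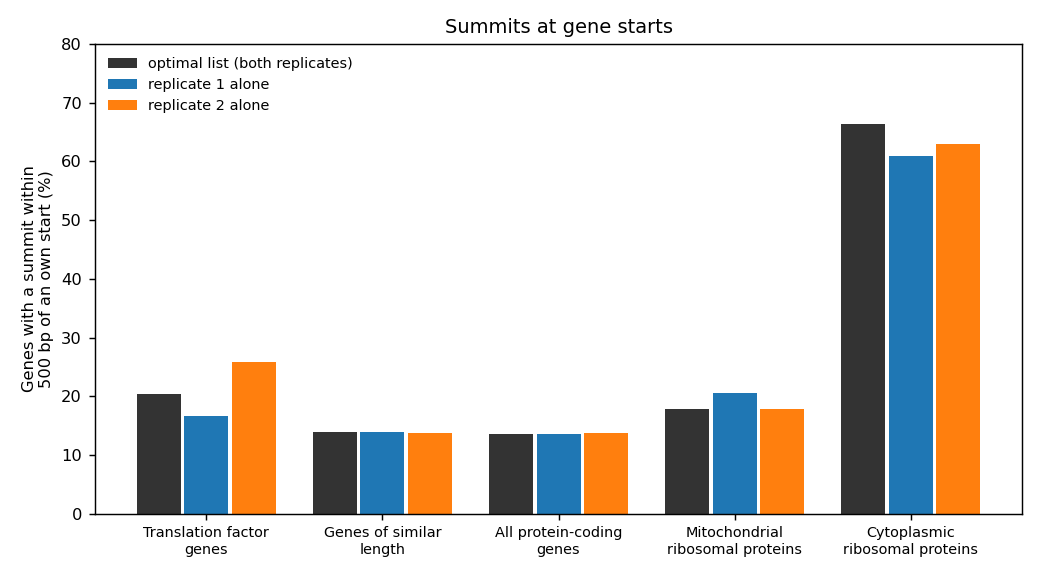
Share of genes (percent, vertical axis) with a summit within 500 bp of an own start, for the translation factor genes, genes of similar length, all protein-coding genes and both kinds of ribosomal protein genes, in the optimal list and in the equally long lists of the strongest candidates of each replicate. The factor genes reach 20.4%, 16.7% and 25.9%, above the 13.5% to 13.8% of all genes and below the 60.9% to 66.3% of cytoplasmic ribosomal protein genes.

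The elongation factors had summits at 4 of 8 own starts. eEF1gamma, a subunit of the exchange factor that recharges eEF1A with GTP, had the highest value of this group. Its signal was 477 in the pooled data (rank 363), with 300 in replicate 1 and 183 in replicate 2, and its summit lay 16 bp upstream of the start, in a region on 3R from 29219941 to 29220287. eEF1alpha1, which brings aminoacyl-tRNA to the ribosome, had a signal of 201, with 112 and 86.7 in replicates 1 and 2. Its summit lay 61 bp upstream of the nearest of its 4 annotated starts, inside an intron of the longer transcripts, on 2R from 11891833 to 11892288. eEF2, the translocase, also had a signal of 201, with 104 and 84.8 in the replicates. Its summit lay 9 bp downstream of the nearer of its 2 starts and in its 5′ UTR, on 2L from 21681879 to 21682334. eEF5, the fly counterpart of eIF5A, which helps ribosomes through stalling stretches, had a signal of 170, with 81.4 and 89.4, 21 bp inside the transcript on 2R from 24057591 to 24058046. These 4 regions were among the strongest of each replicate taken alone. The other elongation factor genes, eEF1alpha2, eEF1beta, eEF1delta and the selenocysteine factor gene eEFSec, were without any summit in the wider window of the gene and 5 kb around it, and without a candidate at their start in either replicate. The subunits of one exchange complex were thus split, with a region at eEF1gamma and none listed at eEF1beta or eEF1delta.

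Among the initiation factor genes 7 of 44 had a summit at an own start (15.9%), close to the 13.6% of all protein-coding genes. The strongest were at eIF6 and eIF4EHP. eIF6, which binds the large ribosomal subunit and prevents premature joining, had the highest own-start signal of the set. The value was 878 (rank 83), with 502 in replicate 1 and 384 in replicate 2, ranks 92 and 86 of the candidate lists, so that both libraries placed it among their strongest regions. Its summit lay 109 bp upstream of the start, on 2R from 23850234 to 23850571, in an exon of a non-coding gene (FBgn0267590). eIF4EHP, a cap-binding protein that represses translation of specific mRNAs such as caudal, followed with 679 (rank 161), 172 bp upstream on 3R from 24108983 to 24109396. The same summit was also within 500 bp of the start of CG18428, though nearer to that of eIF4EHP. The replicates differed more here, with 514 in replicate 1 and 161 in replicate 2, although both values lay well above the lowest of their 4434 strongest candidates, 59.5 and 49.5. For comparison, the stronger summit at org-1 itself had a signal of 484, with 259 and 226.

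Of the 4 factors for start selection and subunit joining, eIF1 and eIF5B had summits and eIF1A and eIF5 had none. eIF1, which keeps the scanning subunit from stopping at wrong codons, had a pair of overlapping regions on 3L. The stronger (358, with 261 in replicate 1 and 97.4 in replicate 2) lay 301 bp upstream of eIF1 but only 80 bp upstream of RpL28, a ribosomal protein gene on the opposite strand. The weaker (163, with 157 in replicate 1) lay 98 bp upstream of eIF1, and the same replicate 2 candidate overlapped both regions. At eIF5B, a GTPase gene, a summit 150 bp upstream of the nearer of its 2 starts had 154, with 113 in replicate 1 and 26.9 in replicate 2, where it was rank 11478 and another candidate at the same start had 40.6. This gene of 32320 bp had 3 more summits in its introns, with signals of 252, 159 and 133.

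The 16 genes of the eIF3 complex, the scaffold on the small subunit, had a summit at 1 own start, that of eIF3h. This was 6.25%, against 13.6% of all protein-coding genes. Its stronger summit (341, with 134 in replicate 1 and 212 in replicate 2) lay 249 bp downstream of the nearer of its 2 annotated starts, in an intron on 2L from 5052373 to 5052572. A weaker summit (197, with 81.2 and 112) lay 46 bp downstream of that start in a coding exon. The stronger summit was also within 500 bp of the start of senju, though nearer to that of eIF3h. The paralogues eIF3d1 and eIF3d2, eIF3f1 and eIF3f2, and eIF3g1 and eIF3g2 had none at their starts.

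The 13 genes of the eIF4 group had summits at the starts of eIF4EHP and eIF4A, the RNA helicase that unwinds the mRNA leader. This was 15.4%, close to the 13.6% of all protein-coding genes. At eIF4A the signal was 114, 55 bp upstream of the nearest of 3 starts on 2L from 5982080 to 5982535. The replicate 2 value was 83.7, and in replicate 1 the candidate with the nearest summit had 19.5, rank 20496, beside another at the same start with 46.4. No summit lay within 500 bp of the cap-binding protein gene eIF4E1, its paralogues eIF4E3, eIF4E4, eIF4E5, eIF4E6 and eIF4E7, the scaffold genes eIF4G1 and eIF4G2, eIF4B, eIF4H1 or eIF4H2. eIF2A, which in mammals can deliver initiator tRNA without eIF2, had the lowest signal with 107, from 25.2 in replicate 1 and 84.6 in replicate 2. The own starts of all 3 eIF2 subunit genes, all 5 genes of its exchange factor eIF2B, of eIF2D and of both release factor genes were without a summit in the optimal list.

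**Figure D2:**
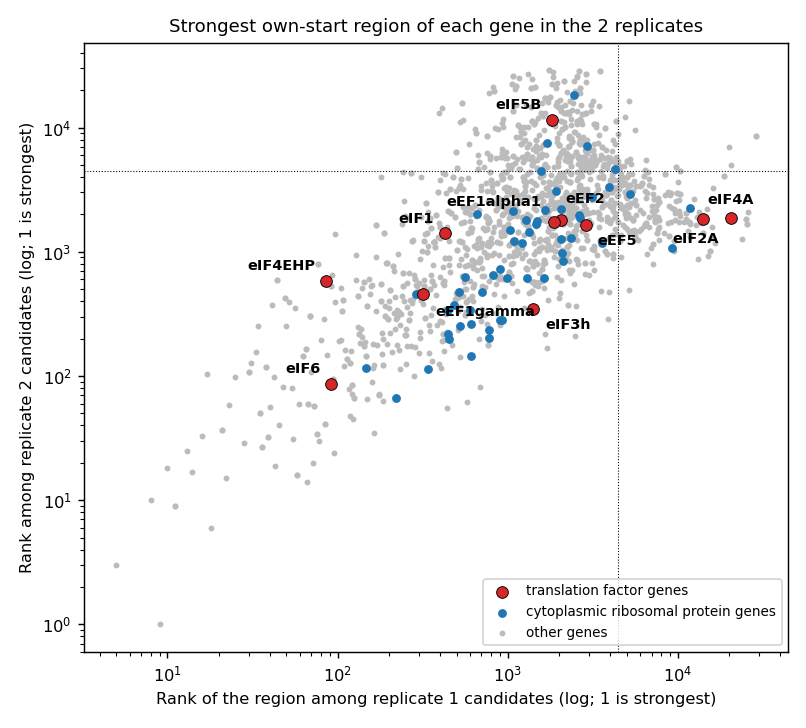
Rank of the candidate with the summit nearest to each gene's strongest own-start summit among the candidates of replicate 1 (horizontal) and replicate 2 (vertical), both on log axes with 1 the strongest, for translation factor genes, cytoplasmic ribosomal protein genes and other genes. Dotted lines mark rank 4434; 8 of the 11 factor genes lie inside both, eIF5B lies above the replicate 2 line, and eIF2A and eIF4A lie beyond the replicate 1 line.

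As a group the own-start summits were of ordinary strength for gene starts. The strongest summit of each of the 11 genes had a median signal of 201 (lowest 107, highest 878), against 194 over all 1891 genes with an own-start summit and 235 over the 61 ribosomal protein genes. Their median position was -61 bp from the start (-301 to 249), against -25 bp for ribosomal protein genes and -149 bp for all such genes. With replicate 2 alone the median was 3.50 bp, downstream of the start, over a different set of 14 factor genes. That set lacks eIF5B and adds eIF3a, eIF3f1, eRF3 and eRF1, with candidates 69, 99, 187 and 234 bp downstream. In the optimal list 8 of 11 (72.7%) lay upstream of the nearest own start, against 73.8% for ribosomal protein genes and 84.3% for all such genes. Upstream of the nearest start was not always outside the gene. The summits of eEF1alpha1 and eIF4A lay in introns, and those of eIF2A and eIF5B in 5′ UTRs, of the same genes. The bases around them were less AT-rich than usual for these peaks. GC content over 101 bp at the summit had a median of 46.5% (25.7% to 51.5%) for the factor genes, against 33.7% for all genes with an own-start summit, and 46.5% for ribosomal protein genes. Of the 11 strongest summits, only that of eIF4EHP was below 38.6% GC. The weaker eIF1 summit, 98 bp upstream of its start, had 26.7%. The stronger eIF1 summit, used in these medians and ranges, was nearest to RpL28. The ratio of replicate 1 to replicate 2 signal had a median of 1.29, against 1.60 over the 1736 of all such genes with a candidate in each replicate. For ribosomal protein genes the median ratio was 1.15. The ratio was 3.20 at the AT-rich summit of eIF4EHP and 0.630 at eIF3h, with 51.5% GC, but 4.21 at eIF5B with the same 51.5%. The lowest ratios were 0.233 at eIF4A (44.6% GC) and 0.298 at eIF2A (46.5% GC). Whether base composition played a part in these values was not tested. All ratios use the candidate with the nearest summit. The strongest candidates at the same starts had 46.4 at eIF4A and 32.4 at eIF2A in replicate 1, and 40.6 at eIF5B in replicate 2.

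The wider window mostly brought in the starts of neighbouring genes. The windows of 21 factor genes held 36 distinct summits, of which 13 lay at an own start. Of the other 23, 22 were nearest to the start of another gene and 13 of them were within 500 bp of it. The largest example was 680 bp upstream of eIF2Bbeta, which encodes a subunit of the eIF2 exchange factor. This region, on X from 2703667 to 2704106, was the fifth strongest of the whole list at 2338, with replicate 1 at 1201 and replicate 2 at 1152, and its summit lay 39 bp upstream of Ugalt, a UDP-galactose transporter gene read in the opposite direction. It was the nearest summit outside the distance limit, while the farthest strongest summits inside it were those of eIF1 (301 bp), eIF3h (249 bp) and eIF4EHP (172 bp). Similar cases were eIF2Bgamma with CG8187 (185, 15 bp upstream of that gene), eIF3d1 with GILT2 (281, 127 bp), eIF3g1 with Smyd3 (161, 103 bp) and eIF2beta with Gcn5 (347, 201 bp). At eEF5 a pair of neighbouring summits belonged to the starts of RpL39 (134, 3 bp upstream) and RpL12 (128, 34 bp upstream). The summit counted for eIF4E1 (293, with 128 and 162) lay in an intron of its neighbour CG4080.

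**Figure D3:**
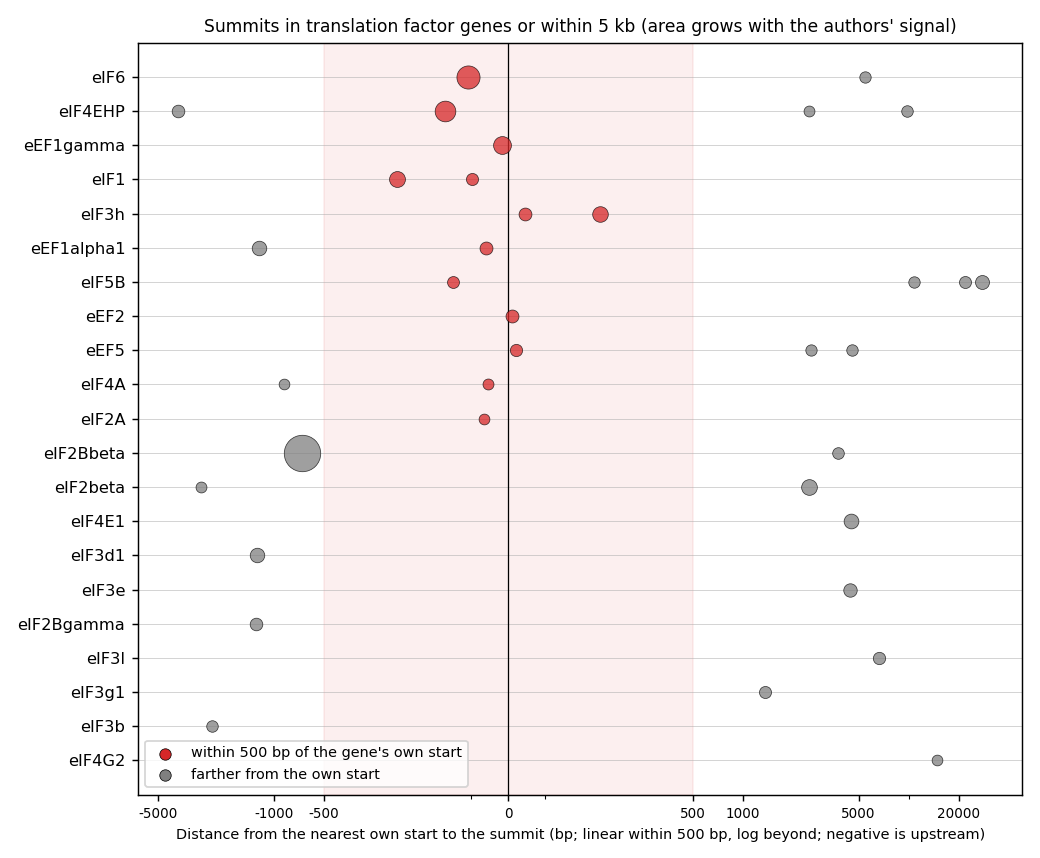
Summits of the optimal list in or within 5 kb of the 21 factor genes that have one, placed by distance to the nearest own start (bp, horizontal axis, linear within 500 bp and logarithmic beyond, negative upstream), with area growing with signal. The shaded band marks 500 bp on either side of the start and holds the summits of 11 genes, while the largest symbol, with a signal of 2338, lies 680 bp upstream of eIF2Bbeta.

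Some starts without a summit held a region in the longer candidate lists, and replicate 2 had more of these weak regions. Of the 43 factor genes without an own-start summit, 18 (41.9%) had a replicate 2 candidate within 500 bp of a start, against 35.2% of all genes without one. In replicate 1, 7 (16.3%) had a candidate, against 25.2%. In the pooled candidates, 10 (23.3%) had one, against 30.0%. A candidate in replicate 2 and none in replicate 1 was found at 15 of the 43 factor genes (34.9%), against 20.5% of all genes without an own-start summit. The reverse was found at 4 (9.30%), against 10.6%. The strongest of the replicate 2 regions were at eRF1, which reads stop codons (61.4, rank 3094), eRF3, its GTPase partner (53.7, rank 3863), eIF3f1 (52.5, rank 4026) and eIF3a (51.7, rank 4129). These 4 were within the 4434 strongest of replicate 2. In replicate 1, eRF1 had 47.0 (rank 5961) and the other 3 had no candidate at their start. Pooled candidates below the threshold reached 96.2 at eIF2D, just under the lowest signal of the optimal list, and 73.2 at eRF3, 71.8 at eIF3c and 63.7 at eRF1. At 21 of the 43 genes (48.8%) no list had a region at the start, against 52.6% of all genes without an own-start summit. The 21 include eIF2alpha, eIF4E1, eIF5 and the paralogues eIF3d2, eIF3f2 and eIF3g2.

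**Figure D4:**
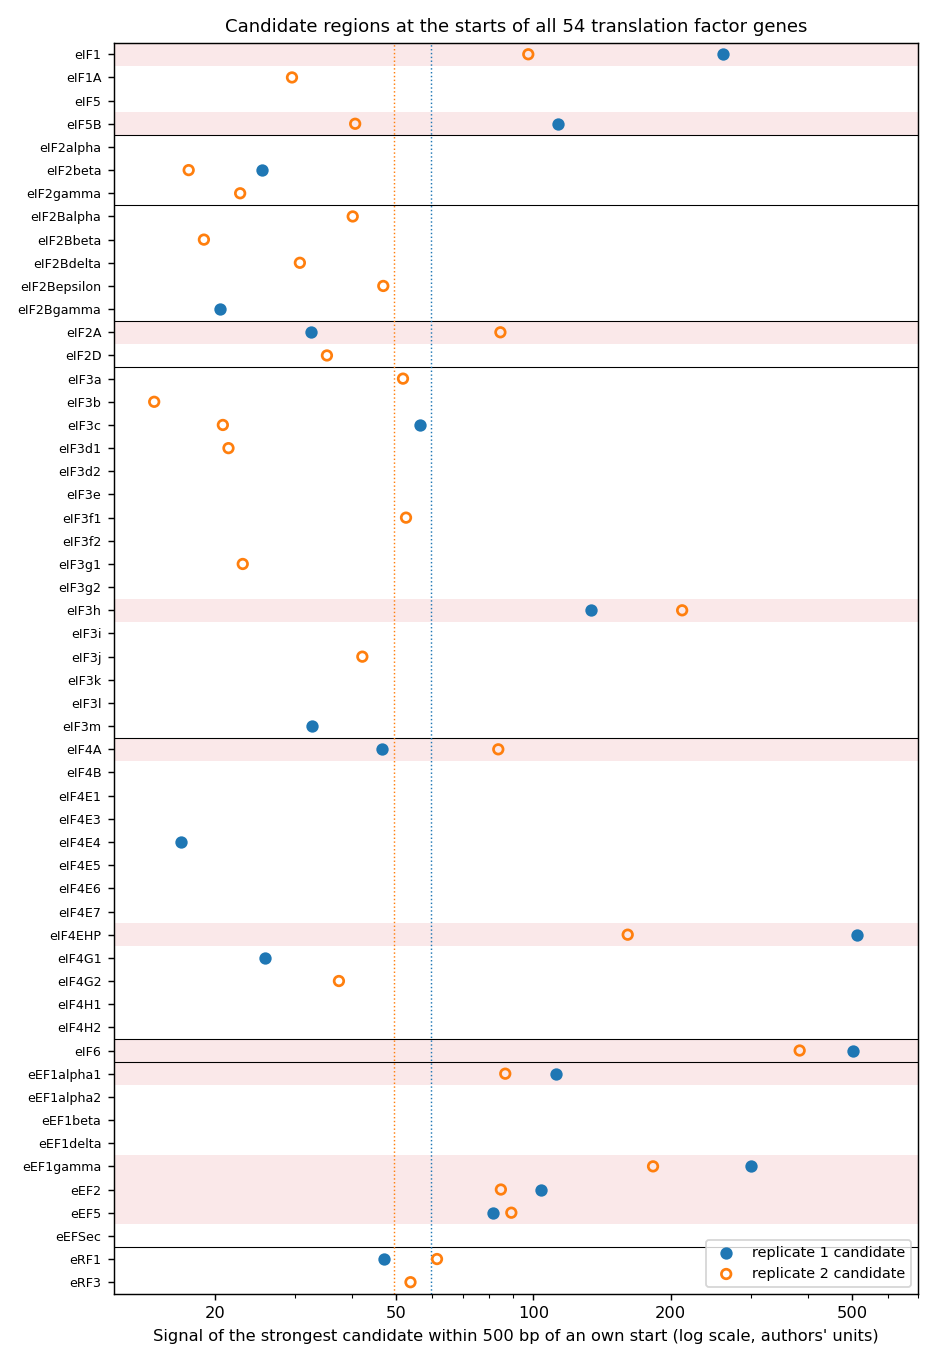
Signal (log scale, authors' units) of the strongest candidate region within 500 bp of an own start for all 54 factor genes, grouped by role with lines between groups, in replicate 1 (filled) and replicate 2 (open); a missing symbol means no candidate. Shaded rows are the 11 genes with a summit in the optimal list, and dotted lines mark the lowest of the 4434 strongest candidates of each replicate, 59.5 and 49.5.

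The T-box core was not found at these summits. AGGTGTG was absent within 50 bp of all 11 strongest own-start summits, and it was present at 8 of the 1891 genes with such a summit (0.423%). The overlapping word GGTGTGA was present at 1, that of eEF1alpha1 (1.00% of all such genes). In the promoters, taken as 250 bases before and 50 after the most upstream start, AGGTGTG was present in 1 of 54 factor genes (1.85%), against 2.65% of all 13945 promoters. That 1 gene was among the 11 with an own-start summit. GGTGTGA was present in 4 of 54 factor gene promoters (7.41%), against 2.87% of all promoters, and in none of those of the 11. The element TATCGATA, the binding site of the factor DREF at many genes of growth and proliferation, was more frequent. It was present at 3 of the 11 summits, those of eEF1gamma, eIF1 and eIF2A, against 2.49% of all genes with an own-start summit. The eIF1 summit searched was the stronger one, 80 bp upstream of RpL28 and 301 bp upstream of eIF1. The promoter share of TATCGATA was 15 of 54 (27.8%), against 9.36% of all promoters and 30.4% of ribosomal protein genes. Of the 15 factor genes with it in the promoter 3 had an own-start summit, and of the 39 without it there 8 (20.5%). These 8 include eIF1 and eIF2A, whose summits hold the element outside the promoter window. Over all genes the shares were 15.3% with it in the promoter and 13.4% without. Those with it but without a summit included eEF1delta, whose start is printed above, eIF2alpha, eIF2gamma, eIF3c and eRF1. The words overlap, and the shorter ATCGAT, contained in TATCGATA, was present in 26 of 54 promoters (48.1%), against 23.3%. GGTCACAC, the core of Motif 1 bound by M1BP, was present at the summits of eEF1alpha1 and eIF2A (1.53% of all such genes). TAAACA, a forkhead core, was present at those of eIF2A and eIF5B, against 15.3%. TATAAA was present at that of eIF6, against 22.5%, and the GATA word AGATAA at that of eIF1, against 7.35%. The homeodomain core TAATTA (9.84%), GAGAG (8.78%), CAGCTG (4.02%) and CACGTG (1.11%) were present at none of the 11. At least 1 of the 12 words was present at 6 of the 11 summits, against 57.1% of all genes with an own-start summit. A match of a word is a description of these windows, and differences between these shares were not tested.

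Other genes of translation were counted in the same way, against 13.6% of all genes with an own-start summit and 41.0% with one in the gene or within 5 kb. Among 15 genes of mRNA binding and translational control, 4 had an own-start summit and 11 one in the wider window. Those at an own start were pAbp, the poly(A)-binding protein gene (235, 474 bp downstream of its nearest start, with 143 in replicate 2 and no replicate 1 candidate), Thor, the eIF4E-binding repressor gene (229, with 74.7 and 145), Gcn2, an eIF2 kinase gene (154, with no candidate in replicate 1 and 102 in replicate 2), and Lk6, an eIF4E kinase gene (128, with 58.0 and 71.6). Lk6 also had a region of 1790 in its wider window, and Gcn2 one of 1547, whose summit lay 79 bp downstream of the start of another gene. NAT1, raptor and crc had none. Of 20 cytosolic aminoacyl-tRNA synthetase genes 5 had an own-start summit and 12 one in the wider window. The highest were SerRS (325, with 222 and 96.8), GluProRS (268, with 170 and 96.1) and IleRS (249, with 180 and 70.6), while ArgRS, AsnRS and HisRS had no summit in the window. Of 4 genes of ribosome rescue and recycling 2 had a summit in the wider window, and pelo had one at its own start (109, with 87.1 and 26.7). The 8 mitochondrial translation factor genes had none, and among them only mEFG1 had one within 5 kb (127).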

How the data were processed

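Binding was measured in 2 libraries labelled as biological replicates of 1 group, and the labels do not say whether they came from separate embryo collections. Per the labels, sonication gave fragments of 200 to 800 bp. Per the deposited file descriptions, each dm6 list was made from the alignments and a control alignment. Which aligner and peak caller made them is not given in the sources used here. Signal is the deposited unit on the authors' scale, and here it only describes and ranks regions inside one list. The pooled value was close to the sum of both replicate values (median ratio 1.00 over 4264 of 4434 optimal regions). Lists on the older build dm3 were not used.

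Gene models came from Ensembl release 115 (BDGP6.54) for arms 2L, 2R, 3L, 3R, 4 and X, whose lengths hold every dm6 region, and starts from protein-coding transcripts. Distances ran from the nearest own start to the summit. The replicate value of a region is that of the overlapping candidate with the nearest summit. Similar length means other genes within 20% of each factor gene, averaged over the 54. For each replicate alone, as many of its strongest candidates as the optimal list holds were used. Python 3.11.15, numpy 2.4.6 and pandas 2.3.3 were used, and the search was tested on planted summits. The genes, lists and words were chosen with earlier results of these data known. The rule for naming genes covered every factor gene, the neighbour nearest to a summit, org-1, and up to 3 genes with and 3 without a summit per list. Lk6 was added after its values were seen. Of the listed symbols, Tor and mEFG2 were not found and left out. No test was made, since the design holds no comparison between samples. Printed sequences leave out arm 2R and more than 30 bases of UTR. Alternatives covered the distances, the starts used, the peak list, overlap in place of summits, the length range and the word windows.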

Additional observations from a re-analysis of the deposited data

How the results depend on the processing

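The count of 11 genes with an own-start summit was 11 at 250 bp (10.7% of genes of similar length), 12 at 1000 bp (16.5%) and 12 with any overlap of the region (15.2%), eIF2Bbeta being added in the last 2. It was 9 with the most upstream start alone (12.2%; eEF1alpha1 and eIF4A lost), 9 with replicate 1 alone (14.0%), 14 with replicate 2 alone (13.8%) and 5 among the 1000 strongest peaks (4.47%). The count of 21 in the wider window was 16 within 2 kb (27.3% of similar genes), 8 within the gene (9.53%), 11 by nearest start (16.3%), 10 with the 1000 strongest peaks (15.1%), 18 with replicate 1 alone (40.1%) and 27 with replicate 2 alone (40.6%). The median signal was 134 with replicate 1 and 85.8 with replicate 2, whose values are on the scale of a single library. The median position was -61 bp with replicate 1 alone (9 genes) and 3.50 bp with replicate 2 alone (14 genes), against -61 bp over 11 genes. The gene sets differ between these medians, and the cause was not tested. Any of the words was present at 6 of 11 summits (57.1% of all genes with an own-start summit), at 9 within 100 bp (83.4%) and at 11 in the promoter windows of 300 bases (93.2%). Of 24 alternatives for single words, 14 moved the count, by over 1.5 times or from or to 0. Some of these were steps of 1 gene. No paired analysis was possible because there is 1 group. Without read counts the depth behind weak regions is unknown.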

Other observations

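A pyrimidine-rich start is known from ribosomal protein genes of Drosophila, and it was looked for after the other values had been seen. It was taken as C or T followed by CTTT on the strand of the gene, with the C of CTTT within 5 bases of an annotated start. It was present at 6 of the 54 translation factor genes (11.1%), against 3.31% of all genes and 60.9% of ribosomal protein genes. The 6 were eEF2, the translocase gene, eEF5, eIF4A, eIF3f1, eIF3i and eIF3m. Of the 11 factor genes with an own-start summit 3 had such a start (27.3%), against 6.66% of all genes with an own-start summit. Of the 43 factor genes without a summit 3 had it (6.98%). Any annotated start could count for both the word and the summit, so genes with more starts had more places to match. Over all genes, 27.3% of the 462 with a pyrimidine start had an own-start summit, against 13.1% of the 13483 without. With the factor genes and ribosomal protein genes left out, 84 of 400 genes with such a start had a summit (21.0%). These differences were not tested.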
